A study of Mus musculus with 98 samples.

Results

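The genes of the 5 oxidative phosphorylation complexes were followed in 98 one-colour Affymetrix arrays of mouse blood leukocytes (64 arrays) and spleen (34 arrays). Probe sets were taken as members where the platform table gave them 1 symbol that starts with Nduf, Uqcr, Atp5, Cox4, Cox5, Cox6, Cox7 or Cox8, or that is Sdha, Sdhb, Sdhc, Sdhd or Cyc1. This rule found 157 of the 22690 probe sets, which stand for 85 genes. By role, 33 genes encode subunits of complex I (67 probe sets), 5 are assembly factors of complex I named Ndufaf (6), 4 encode complex II (7), 9 complex III (16), 17 complex IV (33) and 17 complex V (28). Ndufa4 was counted in complex IV, where its protein is now placed. One probe set, the one with the highest mean over all arrays, stood for each gene, and 40 of the genes had only 1. A filter on low means left 79 genes to test in blood, where Ndufa5, Ndufb2, Ndufaf1, Ndufaf5, Ndufaf7 and Cox7a1 fell out. It left 81 in spleen, where Ndufaf5, Cox6b2, Cox7a1 and Cox8b fell out.

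There were 3 models: a burn, infused lipopolysaccharide (LPS, from the outer membrane of bacteria, which sets off inflammation), and trauma-hemorrhage (injury with blood loss). Titles carry a code, c or x, which the labels do not explain, so x and c are compared as coded. Blood titles also carry a letter, and the labels give E as the injury or infusion and A as sham. All spleen arrays carry E. In blood limma called 0.781% of all genes for E minus A, against 19.2% to 54.2% for x minus c. Whether the code or the letter carries the treatment is not known from the labels used here, so no difference between x and c is read as an effect of an injury or infusion. Burn blood had 5 arrays of c with A, 4 of x with A, 6 of c with E and 5 of x with E. LPS blood had 6, 5, 6 and 5 arrays in the same order, and trauma-hemorrhage blood 5, 5, 6 and 6. In spleen, burn had 5 c and 6 x arrays of leukocytes taken from the spleen, LPS 6 and 6 and trauma-hemorrhage 6 and 5 of what the labels call spleen. The labels name no strain, age, sampling time or animal. They do not say whether each array stands for its own animal, so the p-values cover the spread between these samples only, and that spread may be technical.

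Oxidative phosphorylation makes most of the ATP of a resting cell at the inner mitochondrial membrane. Complex I takes electrons from NADH and complex II from succinate, both pass them to ubiquinone, complex III hands them on to cytochrome c, and complex IV gives them to oxygen. Complexes I, III and IV pump protons as they do so, and complex V, the ATP synthase, lets the protons back in to make ATP. Except for complex II, each complex joins subunits encoded in the nucleus, measured here, with a few encoded in mitochondrial DNA. Among leukocytes, neutrophils are known for few mitochondria and a reliance on glycolysis, and lymphocytes lean more on mitochondria, so a bulk sample's level depends on which cells it holds. In bulk samples, fewer cells of a type and less RNA per cell cannot be told apart.

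Levels are given as log2(intensity + 16) after quantile normalization within a tissue, and a difference is x minus c on that scale with its standard error (SE). In blood it was averaged over both letters. Differences were tested with limma, and a gene was called higher or lower at a Benjamini-Hochberg adjusted p under 0.05 over all 10247 genes tested. Each set of arrays (a model in a tissue) had a floor for the dimmest probe sets, from an intensity of 9.68 in burn spleen to 32.5 in LPS blood, and median intensities ran from 76.2 to 145 over all arrays. Levels were therefore compared only within a set. The number of arrays limits the precision, and no member that was tested sat at the floor in every array of a set.

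A control ratio for RNA quality moved with the code in LPS and trauma-hemorrhage blood, and cell markers did in several sets. For the beta-actin control probe sets, the 3' signal over the 5' signal, a measure of RNA quality, was on the log2 scale 1.58 ± 0.06 (SD, n = 12) in c and 1.07 ± 0.11 (SD, n = 10) in x of LPS blood. It was 1.99 ± 0.13 (SD, n = 11) in c and 1.42 ± 0.19 (SD, n = 11) in x of trauma-hemorrhage blood. In neither set did c and x overlap, and each permutation p was 1e-05, the smallest that 100000 permutations can give (two-sided, adjusted 6e-05 over 12 tests). In the other 4 sets the beta-actin ratios of c and x overlapped, with adjusted permutation p-values of 0.84 or 1. The GAPDH ratio went the other way in LPS blood, averaging 2.74 in c and 2.90 in x, with overlap (adjusted permutation p = 0.049). In trauma-hemorrhage blood it averaged 2.80 in c and 2.72 in x, with overlap (adjusted permutation p = 0.73). Of 13 neutrophil markers tested, 8 were higher in x and 0 lower in burn blood. LPS blood had 11 and 0, and trauma-hemorrhage blood 7 and 2. Of 10 B cell markers, 0 were higher and 9 lower in burn blood. LPS blood had 1 and 2, and trauma-hemorrhage blood 0 and 4. Over all genes 19.2% were called either way in burn blood, 27.4% in LPS blood and 54.2% in trauma-hemorrhage blood. The B cell counts in LPS and trauma-hemorrhage blood were near or below those shares. No neutrophil, B cell or T cell marker that was tested sat at the floor in every array of a set. The part of RNA quality and of cell makeup in the results below was not tested, except where a value is given.

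In burn blood, OXPHOS genes were mostly lower in x. Of the 79 tested, 21 fell and 1 rose, against 11.4% of all genes called lower and 7.83% called higher (19.2% either way). The members' median difference was -0.13, against -0.01 over all genes tested. Below 0 lay 66 of the 79, against 5545 of 10247 over all genes. Complex I held 11 of the falls among its 31 tested genes and complex V 6 among 17. Complex III held 2 among 9, complex II 1 among 4 and the assembly factors 1 among 2. Of the 16 genes of complex IV, limma called 0, and 4 had an unadjusted p under 0.05. The mean level of the neutrophil markers ran from 8.20 to 11.12 over c arrays and from 9.68 to 10.16 over x arrays, and that of the B cell markers from 8.79 to 9.94 and from 8.54 to 8.96. Replicates 4 and 5 of c with E stand apart by these markers, and without both 38 members were called, 1 rise and 37 falls. The share of all genes called in that fit was not recorded. On the scale of the values as deposited, 15 of the 21 falls were called. In arrays of letter A alone 0 members rose and 26 fell (19.6% of all genes called). In those of letter E alone 0 rose and 1 fell (2.77%). All 22 differences called in the main fit kept their sign in each.

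In LPS blood, members split. Of 79, 16 rose and 23 fell, against 13.8% and 13.6% of all genes (27.4% either way), and the median difference was -0.05. Falls outnumbered rises in complex I, with 5 rises and 10 falls among 31, and both assembly factors fell. Complex II had 0 rises and 1 fall among 4, complex III 2 and 3 among 9, complex IV 4 and 2 among 16, and complex V 5 and 5 among 17. So no complex as a whole moved one way, and the members of complex V moved to both sides in equal number. As deposited, 13 of the 16 rises and 20 of the 23 falls were called. In arrays of letter A alone 8 rose and 3 fell (7.11% of all genes called), and in those of letter E alone 6 and 20 (17.8%). The mean neutrophil marker level ran from 8.44 to 10.18 over c and from 9.02 to 11.15 over x arrays.

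In trauma-hemorrhage blood, 30 members rose and 18 fell of 79, against 21.4% and 32.8% of all genes (54.2% either way). The median difference was 0.07, against -0.05 over all genes tested. Complex I had 17 rises and 3 falls among 31, both assembly factors rose, complex II had 1 and 1 among 4, complex III 3 and 2 among 9, and complex V 5 and 2 among 17. Complex IV had 2 rises and 10 falls among 16 with a median of -0.24, a direction that did not hold on the scale of the values as deposited, where 5 of its genes rose and 2 fell with a median of 0.00. On that scale 45 members rose and 5 fell (90% of calls higher, against 62.5% on the main scale). Over all genes 53.9% of calls were higher there, against 39.5% on the main scale. With each array centred on its median the members' counts were again 45 and 5, and 54.9% of calls over all genes were higher. Of the 30 rises on the main scale, 29 were called higher on the deposited scale too. Of the 18 falls, 5 were called lower as deposited (Ndufa1, Ndufa7, Cox6a2, Cox6b2 and Atp5g1), 11 were not called and 2 (Atp5h and Cox8a) were called higher. In arrays of letter A alone 31 members rose and 7 fell (41.7% of all genes called), complex I giving 17 and 3. In those of letter E alone 6 rose and 9 fell (23.2%), complex I giving 3 and 2, so rises outnumbered falls over the members in A but not in E. All 48 differences kept their sign in each. Limma's test of letter by code called 0 members. In simulated data that test recovered only 27% of changes of 0.5 log2, so it does not show that the letters agree. The mean neutrophil marker level ran from 8.93 to 10.23 over c and from 9.94 to 11.65 over x arrays, and 5 of 13 monocyte and macrophage markers were higher in x and 2 lower. That monocyte and macrophage count was near the 54.2% called over all genes.

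In spleen, few members were called. In burn spleen 2 rose and 4 fell of 81, against 9.92% and 9.11% of all genes (19% either way). As deposited the split was 5 and 3, and with arrays centred on their median 6 and 3. Calls over all genes moved the same way, from 52.2% higher on the main scale to 56.8% as deposited and 64.1% median centred. In LPS spleen limma called 0 of 81, against 4.02% of all genes (2.86% higher and 1.16% lower), and 3 members had an unadjusted p under 0.05. In trauma-hemorrhage spleen 2 rose and 10 fell, against 11.5% and 18.4% of all genes (30% either way). The split was 1 and 5 as deposited and 2 and 5 with arrays centred on their median. Over all genes 38.5% of calls were higher on the main scale, 37% as deposited and 38.9% median centred. In all 3 spleen sets a smaller share of members was called than of all genes tested.

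The title numbers of the blood and LPS spleen arrays ran through the groups in 2 passes, which may mark an order of handling that the labels do not explain. With the pass as a block, 21 members were called in burn blood, 40 in LPS blood and 48 in trauma-hemorrhage blood. The share of all genes called in that fit was not recorded. Within the first and the second pass alone, 16 and 0 were called in burn blood, against 12.2% and 0.537% of all genes. In LPS blood 37 and 5 were called, against 27.4% and 4.75%, and in trauma-hemorrhage blood 13 and 39, against 11.7% and 46.6%. Each pass of LPS spleen gave 0, against 1.51% and 1.54%, with 10 and 4 members at an unadjusted p under 0.05.

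**Figure D1:**
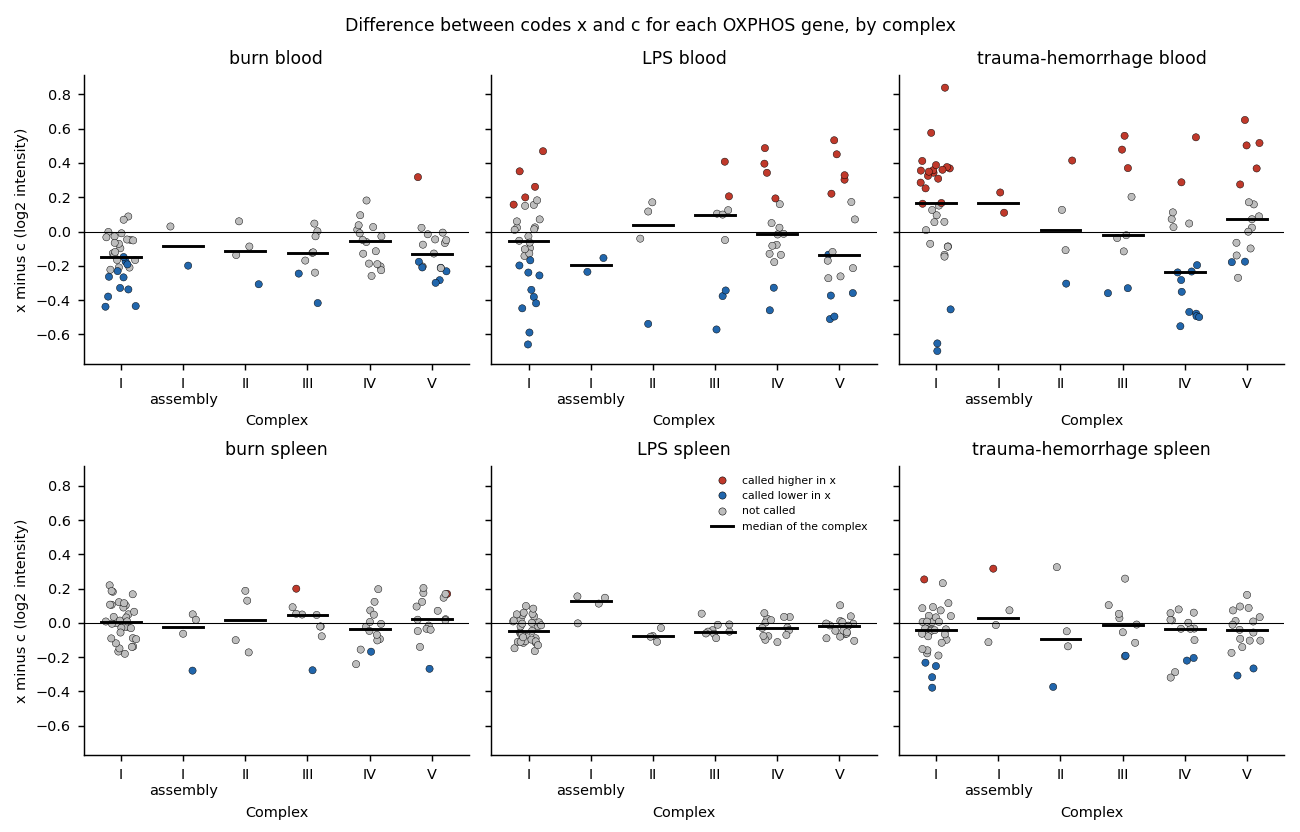
Difference x minus c (log2) of each OXPHOS gene tested, by complex, in each of the 6 sets of arrays. Each point is 1 gene, red where limma called it higher, blue where lower and grey where not called, and black bars are the medians of a complex. In burn blood most points lie below 0 (66 of 79, against 5545 of 10247 over all genes). In trauma-hemorrhage blood complex I lies mostly above 0 (17 rises and 3 falls), and in LPS spleen no point is called. The low position of complex IV in trauma-hemorrhage blood (median -0.24) did not hold on the deposited scale (median 0.00).

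Promoters were looked at because the members are known to share regulators: nuclear respiratory factor 1 (NRF1), GA-binding protein (GABPA) and YY1. RefSeq promoters of assembly GRCm38.p6, 300 bases from 250 before to 50 after the annotated start, matched 70 of the 85 genes by gene identifier. The letters GCATGCG, from the motif of NRF1 and searched on both strands, stood in 11 of the 70 (15.7%), against 3.64% of all 27025 promoters in the table. CCGGAAG (GABPA, both strands) stood in 17 (24.3%), against 9.12%, and ATGGCGG (YY1, both strands) in 9 (12.9%), against 4.19%. Of the 9 with ATGGCGG, 7 belong to the 30 promoters of complex I. A match is a description of the letters and not a binding site shown to be used. Of the promoters, 3 are printed. Ndufc2 has the smallest p in the test between models below and holds none of the 3 motifs. Sdhb and Uqcrh both hold CCGGAAG on 1 strand and were called in opposite directions in both LPS and trauma-hemorrhage blood. The trauma-hemorrhage call of Uqcrh was lost on the deposited scale. CCGGAAG stood in 3 of 27 promoters of members higher in trauma-hemorrhage blood, 5 of 14 lower and 8 of 23 not called. Whether the letters go with a direction was not tested. Capitals mark CCGGAAG (in Sdhb), its reverse complement CTTCCGG (in Uqcrh) and GCATGCG (in Sdhb). The regions are chr7:97399753-97400052 (plus strand) for Ndufc2, chr4:140961021-140961320 (plus strand) for Sdhb and chr4:116075021-116075320 (minus strand) for Uqcrh, each printed 5' to 3' on the gene's strand.
Ndufc2: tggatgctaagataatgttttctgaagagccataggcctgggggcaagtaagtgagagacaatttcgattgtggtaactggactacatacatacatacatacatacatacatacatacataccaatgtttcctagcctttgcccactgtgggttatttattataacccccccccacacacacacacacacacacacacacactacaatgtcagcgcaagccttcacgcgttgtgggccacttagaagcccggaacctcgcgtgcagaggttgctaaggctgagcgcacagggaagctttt
Sdhb: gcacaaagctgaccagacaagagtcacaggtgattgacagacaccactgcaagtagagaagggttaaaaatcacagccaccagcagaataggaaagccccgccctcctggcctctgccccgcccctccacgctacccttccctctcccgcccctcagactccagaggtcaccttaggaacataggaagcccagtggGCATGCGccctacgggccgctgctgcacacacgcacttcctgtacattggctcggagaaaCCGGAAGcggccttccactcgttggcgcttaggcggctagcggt
Uqcrh: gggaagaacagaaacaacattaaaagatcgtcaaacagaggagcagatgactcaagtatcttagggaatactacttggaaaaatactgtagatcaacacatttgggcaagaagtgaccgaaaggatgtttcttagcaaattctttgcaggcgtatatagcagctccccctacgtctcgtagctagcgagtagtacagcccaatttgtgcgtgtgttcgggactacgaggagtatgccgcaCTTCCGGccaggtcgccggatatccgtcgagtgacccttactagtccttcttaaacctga

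Complex I is the largest of the complexes, with core subunits that carry the redox centres and many accessory subunits that hold it together. In burn blood 2 of its 6 core and 9 of its 25 accessory genes fell, in LPS blood 3 core genes fell while accessory genes split into 5 rises and 7 falls, and in trauma-hemorrhage blood 4 core and 13 accessory genes rose while 1 and 2 fell. Over all genes 7.83%, 13.8% and 21.4% were called higher in the same order, and 11.4%, 13.6% and 32.8% lower. These counts rest on 1 probe set per gene. Other probe sets of Ndufb7 in LPS blood, and of Ndufv1, Ndufb11 and Ndufs8 in trauma-hemorrhage blood, were called the other way. Ndufc2, an accessory subunit of the membrane arm, moved the most. In LPS blood its level had a lowest, median and highest value of 8.66, 9.27 and 9.52 over c arrays and of 8.05, 8.64 and 9.08 over x arrays. The x arrays sat lower with overlapping ranges, a difference of -0.66 ± 0.11 (SE, adjusted p = 0.000109) or 1.58-fold. In trauma-hemorrhage blood c arrays had 7.33, 7.69 and 8.48 and x arrays 8.28, 8.62 and 8.90, so x sat higher, again with overlap, by 0.84 ± 0.11 (adjusted p = 2.71e-06) or 1.79-fold. In burn blood c arrays had 8.74, 9.52 and 9.70 and x arrays 8.69, 8.99 and 9.29, and Ndufc2 fell by 0.43 on the log2 scale (SE 0.10, adjusted p = 0.00536).

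Ndufc1, the partner of Ndufc2 in the membrane arm, fell the most in burn blood. Its lowest, median and highest values were 7.91, 8.36 and 8.55 over c arrays and 7.65, 7.93 and 8.05 over x arrays, which overlap at the low end of c. The difference was -0.44 ± 0.07 (adjusted p = 0.00019). It rose by 0.39 in trauma-hemorrhage blood. The falls of complex I in burn blood other than those of Ndufc1 and Ndufc2 ran from -0.15 (Ndufs5, an accessory subunit) to -0.38 (Ndufa1, a small membrane subunit) and took in the core subunits Ndufs7 (-0.33), of the quinone module, and Ndufv2 (-0.19), of the NADH module.

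In LPS blood the falls after Ndufc2 were led by Ndufs7 (-0.59 ± 0.10, adjusted p = 9.91e-05), Ndufa12 (-0.45), an accessory subunit, and Ndufv1 (-0.42), which binds NADH. Ndufa12 did not overlap between the codes, with 8.39, 8.63 and 8.78 over c arrays and 7.75, 8.16 and 8.37 over x arrays. The largest rise was that of Ndufa3, an accessory subunit of the membrane arm. Its c arrays had 8.56, 8.66 and 8.79 and its x arrays 8.49, 9.15 and 9.43, so most x arrays lay above c but at least 1 lay below all of c. The difference was 0.47 ± 0.07 (adjusted p = 2.94e-05). Ndufa7 (0.35), Ndufa6 (0.26), Ndufs4 (0.20) and Ndufs5 (0.16), all accessory, rose too.

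In trauma-hemorrhage blood the rises ran from 0.16 (Ndufa9) to 0.84 (Ndufc2). Ndufv2 was second, with 7.58, 7.73 and 8.26 over c arrays and 8.08, 8.45 and 8.64 over x arrays, which overlap, a difference of 0.58 ± 0.07 (adjusted p = 2.76e-06). The core subunits Ndufs3 (0.25), Ndufs7 (0.31) and Ndufv1 (0.29) rose as well. The largest fall was that of Ndufa1, from 10.17, 10.90 and 11.05 over c arrays to 9.66, 10.03 and 10.60 over x arrays, with overlap, -0.70 ± 0.13 (adjusted p = 0.000129). It was smaller on the deposited scale (-0.32, adjusted p = 0.0126). Ndufa7, named after its values were seen, did not overlap between the codes. Its c arrays had 9.81, 10.22 and 10.40 and its x arrays 9.23, 9.45 and 9.67, a difference of -0.65 ± 0.08 (adjusted p = 1.18e-06) that was -0.34 as deposited. Its other probe sets did not share this fall. The fall of Ndufs8 (-0.45), a core subunit, was lost as deposited (-0.01, adjusted p = 0.94).

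Of the assembly factors of complex I, 2 passed the filter in blood. Ndufaf4, which acts early in assembly, fell in burn blood (-0.20, adjusted p = 0.0157) and LPS blood (-0.24, adjusted p = 0.00063) and rose in trauma-hemorrhage blood (0.23 ± 0.06, adjusted p = 0.00327). Its c and x ranges overlapped in each. Ndufaf3, its binding partner, fell in LPS blood (-0.15) and rose by 0.11 in trauma-hemorrhage blood, a call lost on the deposited scale (0.09, adjusted p = 0.097).

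Complex II, succinate dehydrogenase, is shared with the tricarboxylic acid cycle and has 4 nuclear subunits. Sdhb, its iron-sulfur subunit, fell in LPS blood from 10.06, 10.36 and 10.59 over c arrays to 9.31, 9.80 and 10.17 over x arrays, with ranges that overlap slightly. The difference was -0.54 ± 0.09 (adjusted p = 0.000105). In trauma-hemorrhage blood it rose from 9.16, 9.46 and 9.90 to 9.54, 9.91 and 10.38, by 0.41 ± 0.09 (adjusted p = 0.000931). Sdha, the flavoprotein that oxidizes succinate, fell in burn blood from 8.999, 9.29 and 9.62 to 8.83, 8.93 and 9.20, with overlap (-0.31 ± 0.08, adjusted p = 0.00757). It was not called in LPS blood (0.12 ± 0.05) or trauma-hemorrhage blood (-0.11 ± 0.06). Sdhc, a membrane anchor, was called lower in trauma-hemorrhage blood (-0.30 ± 0.09, adjusted p = 0.00702) but not as deposited (-0.05, adjusted p = 0.60).

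Complex III has catalytic subunits, cytochrome c1 (Cyc1) and the Rieske iron-sulfur protein (Uqcrfs1), and accessory ones. Cyc1 fell in LPS blood from 8.83, 9.31 and 9.49 over c arrays to 8.40, 8.63 and 9.04 over x arrays, with overlap, -0.57 ± 0.08 (adjusted p = 2.87e-05). In trauma-hemorrhage blood it rose from 8.06, 8.30 and 8.54 to 8.68, 8.84 and 9.14. There every x array lay above every c array, and the difference was 0.56 ± 0.07 (adjusted p = 2.01e-06) or 1.47-fold. Uqcrfs1 rose in trauma-hemorrhage blood too, from 7.76, 7.89 and 8.37 to 8.25, 8.46 and 8.73, with a slight overlap (0.48 ± 0.07, adjusted p = 2.63e-05).

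Uqcrb, an accessory subunit that touches the ubiquinone site, was called in 5 of the 6 sets. It fell in burn blood (from 10.59, 11.48 and 11.85 to 10.62, 11.00 and 11.37, -0.42 ± 0.13, adjusted p = 0.0253), a call that missed the threshold as deposited (adjusted p = 0.055). In LPS blood it fell from 10.58, 11.29 and 11.40 to 10.52, 10.76 and 11.17 (-0.38 ± 0.09, adjusted p = 0.00216). It also fell in burn and trauma-hemorrhage spleen, below, and rose in trauma-hemorrhage blood from 9.81, 10.24 and 10.90 to 10.35, 10.64 and 11.06 (0.37 ± 0.10, adjusted p = 0.0046). In none of the 3 blood sets did the ranges of c and x separate. Uqcrh, the hinge protein between cytochrome c1 and cytochrome c, ran the other way. It rose in LPS blood from 9.14, 9.41 and 9.62 to 9.47, 9.83 and 10.02 (0.41 ± 0.06, adjusted p = 3.75e-05). In trauma-hemorrhage blood it was called lower, from 9.47, 10.04 and 10.31 to 9.12, 9.62 and 10.002 (-0.36 ± 0.10, adjusted p = 0.0047), but not as deposited (-0.05, adjusted p = 0.65).

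Complex IV, cytochrome c oxidase, has nuclear subunits with isoforms, some common to most tissues and some known for muscle, lung, testis or low oxygen. Cox5b, a zinc-binding subunit, fell in LPS blood without overlap, from 10.76, 10.91 and 11.12 over c arrays to 10.30, 10.45 and 10.67 over x arrays (-0.46 ± 0.06, adjusted p = 4.78e-06). In trauma-hemorrhage blood it rose from 10.24, 10.35 and 10.49 to 10.41, 10.62 and 10.91, with overlap (0.29 ± 0.06). Cox4i1, the common form of the subunit where ATP regulates the enzyme, was the largest rise of the complex in trauma-hemorrhage blood, from 9.07, 9.30 and 9.65 to 9.63, 9.82 and 10.19, with ranges that just meet (0.55 ± 0.07, adjusted p = 6e-06). It was not called in LPS blood (-0.13 ± 0.06, adjusted p = 0.0884) or burn blood (-0.03 ± 0.06, adjusted p = 0.801).

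Cox6c, a small membrane subunit, rose the most of complex IV in LPS blood, from 9.64, 9.85 and 9.95 to 9.88, 10.29 and 10.67, with a slight overlap (0.49 ± 0.08, adjusted p = 5.29e-05). Cox8a (0.40) and Cox7a2 (0.19), both common isoforms, rose too, and Cox7a2l, which joins complexes into supercomplexes, fell (-0.33). In trauma-hemorrhage blood the lowest difference of the complex was that of Cox6a1, the common form of a small regulatory subunit, from 10.39, 11.19 and 11.38 to 9.96, 10.57 and 11.08 (-0.55 ± 0.12, adjusted p = 0.000899). As deposited it was -0.10 (adjusted p = 0.40). Cox6c was -0.49 ± 0.11 there (adjusted p = 0.000704) and -0.13 as deposited (adjusted p = 0.17). Cox7a2 (-0.50), Cox5a (-0.47) and Ndufa4 (-0.28) were called lower on the main scale and not as deposited.

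Among the isoforms known for restricted tissues, Cox6b2, known from testis, fell in trauma-hemorrhage blood from 8.01, 8.54 and 8.76 to 7.50, 8.03 and 8.38, with overlap (-0.48 ± 0.10, adjusted p = 0.000575, and -0.40 as deposited). Cox6a2, known from heart and skeletal muscle, was -0.23 ± 0.07 there (adjusted p = 0.00638). Cox8b, also known from muscle, was -0.35 ± 0.14 there (adjusted p = 0.0363, not called as deposited, adjusted p = 0.081) and rose in LPS blood by 0.34 ± 0.09 (adjusted p = 0.00408). Cox8c, also known from testis, was -0.24 ± 0.08 there (adjusted p = 0.0118) and 0.022 as deposited, with no call. Cox4i2, known from lung and low oxygen, was not called in any set, with differences from -0.11 in LPS spleen to 0.05 in trauma-hemorrhage blood. Cox6a2 was not called in burn blood (0.04), LPS blood (0.05) or any spleen set (-0.24, 0.00 and 0.01 for burn, LPS and trauma-hemorrhage). Cox6b2 was -0.13 in burn blood and 0.16 in LPS blood, and Cox8b 0.10 in burn blood, with no call. Cox7a1 did not pass the filter, and Ndufa4l2 was not analysed here.

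Complex V is built of a catalytic F1 head, a central stalk, a ring of c subunits that the protons turn, a peripheral stalk and other membrane subunits. Atp5g3, 1 of the 3 genes for the same c-ring protein, had the largest rise of the complex in trauma-hemorrhage blood. It went from 9.37, 9.59 and 10.25 over c arrays to 10.16, 10.32 and 10.57 over x arrays, which overlap only at the top of c (0.65 ± 0.09, adjusted p = 5.1e-06). In LPS blood it fell from 10.43, 10.86 and 11.10 to 10.07, 10.30 and 10.76 (-0.50 ± 0.08, adjusted p = 0.000102). In burn blood it had the largest fall of the complex (-0.30 ± 0.09, adjusted p = 0.0214), which was not called as deposited (-0.21, adjusted p = 0.085). Of the other 2 c-ring genes, Atp5g2 rose too in trauma-hemorrhage blood (0.37) and Atp5g1 fell (-0.18 ± 0.04, adjusted p = 0.000578).

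Atp5c1, the gamma subunit that turns in the central stalk, fell in LPS blood from 10.15, 10.60 and 10.95 to 9.50, 10.03 and 10.66, the largest fall of the complex there (-0.51 ± 0.11, adjusted p = 0.00129). It rose in trauma-hemorrhage blood from 9.28, 9.61 and 9.98 to 9.82, 10.11 and 10.46 (0.50 ± 0.08, adjusted p = 4.34e-05). The c and x ranges overlapped in both sets. Of the 3 central stalk genes, Atp5e rose in LPS blood (0.22) and Atp5c1 and Atp5d fell, while both genes of the F1 head rose. Atp5b, the catalytic beta subunit, rose there from 8.90, 9.06 and 9.26 to 8.93, 9.62 and 10.10 (0.53 ± 0.08, adjusted p = 4.83e-05). Atp5a1, the alpha subunit, rose by 0.30 there and fell in burn blood (-0.28). In trauma-hemorrhage blood limma called 0 of the 2 F1 head genes. Atp5l, a membrane subunit, was the 1 member that rose in burn blood, from 7.45, 7.82 and 8.14 to 7.96, 8.15 and 8.39, with overlap (0.32 ± 0.08, adjusted p = 0.00716). It rose in LPS blood as well (0.45, adjusted p = 0.000784). The other falls of complex V in burn blood ran from -0.18 (Atp5mpl) to -0.28 (Atp5a1).

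**Figure D2:**
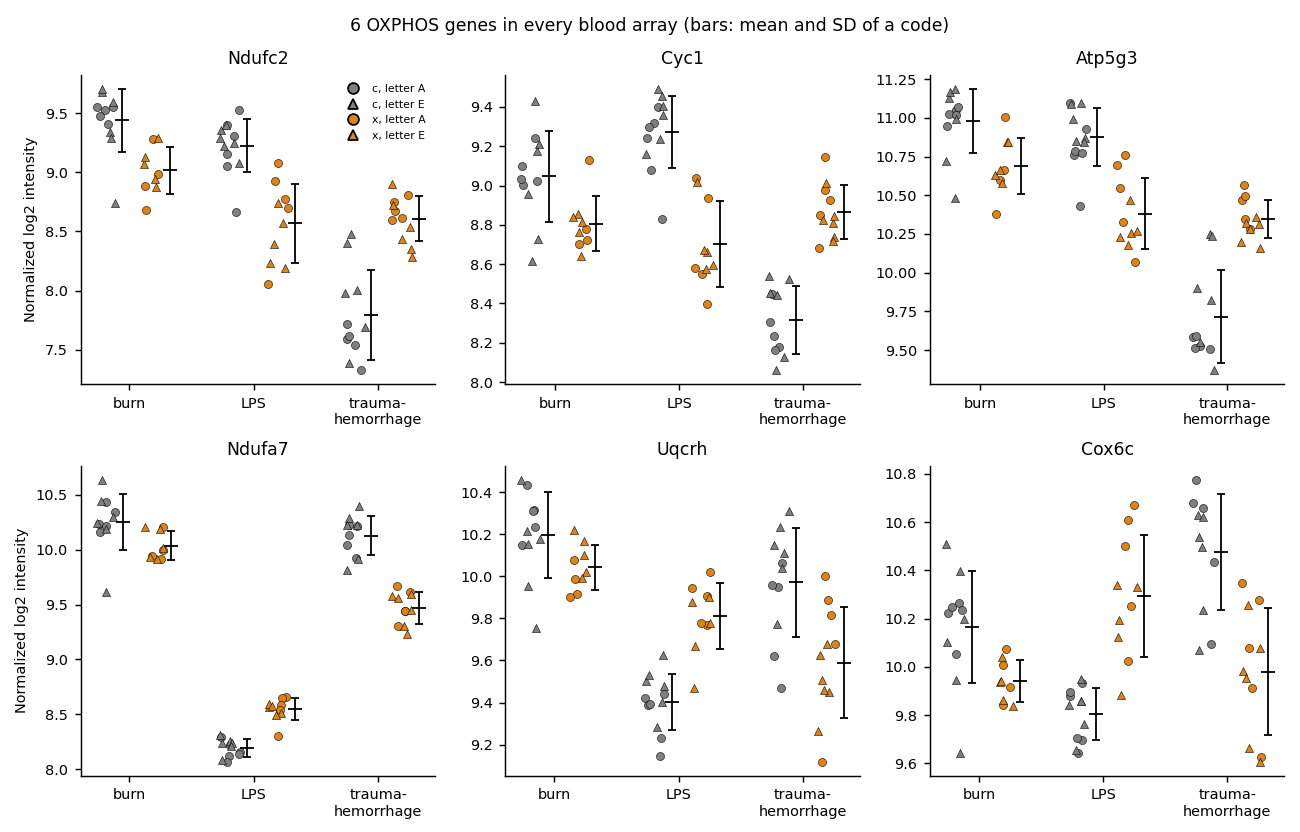
Level (normalized log2 intensity) of Ndufc2, Cyc1, Atp5g3, Ndufa7, Uqcrh and Cox6c in every blood array, by model and code. Grey is c, orange is x, circles are letter A, triangles letter E, and bars are the mean and SD of a code. Ndufc2, Cyc1 and Atp5g3 are lower in x in LPS blood and higher in x in trauma-hemorrhage blood, where Cyc1 does not overlap between the codes. Ndufa7, Uqcrh and Cox6c are higher in x in LPS blood and lower in trauma-hemorrhage blood, though the falls of Uqcrh and Cox6c there were not called on the deposited scale (-0.05 and -0.13). The other probe sets of Ndufa7 did not fall there (0.02 to 0.18).

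The models were then compared directly. LPS and trauma-hemorrhage blood share no arrays. Of 24 members called in both, 20 were called in opposite directions (83.3%), against 1049 of 1633 genes over the whole table (64.2%). Of the 20, 14 were lower in x in LPS blood and higher in x in trauma-hemorrhage blood, and 6 the reverse. Complex I gave 6 and 1, its assembly factors 2 and 0, complex II 1 and 0, complex III 2 and 1, complex IV 1 and 4, and complex V 2 and 0. Across the 79 members, the differences in the 2 sets had a Pearson r of -0.54 and a Spearman rho of -0.52, against 0.01 and -0.12 over all genes. These are correlations across genes of the same arrays, which are not independent replicates. On the deposited scale 23 members were called in both sets and 17 were opposite, of which 16 were lower in x in LPS blood and higher in x in trauma-hemorrhage blood and 1 (Ndufa7) the reverse. Of the 20, 19 kept opposite signs there, and Cox8a, called higher in both, did not. The trauma-hemorrhage calls of Uqcrh, Cox6c, Cox7a2 and Cox8b were lost.

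Of 12 members called in burn and trauma-hemorrhage blood, 11 were opposite (91.7%), all lower in x in the former and higher in x in the latter, against 649 of 1106 genes over the whole table (58.7%). Of 11 called in burn and LPS blood, 2 were opposite (18.2%), against 369 of 839 (44%). A limma F test asked whether x minus c is the same in all 3 models. It called 63 of 79 members in blood (79.7%), against 59.6% of all genes: 24 of 31 in complex I, both assembly factors, 3 of 4 in complex II, 8 of 9 in complex III, 11 of 16 in complex IV and 15 of 17 in complex V. Ndufc2 had the smallest p (adjusted p = 6.5e-12), and its x minus c was 1.498 ± 0.155 higher in trauma-hemorrhage than in LPS blood and 1.27 higher than in burn blood. Cyc1 was next (adjusted p = 1.03e-11), with 1.13 ± 0.11 over LPS and 0.80 over burn blood. For Ndufc2, burn and LPS blood differed by 0.22 (adjusted p = 0.358).

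**Figure D3:**
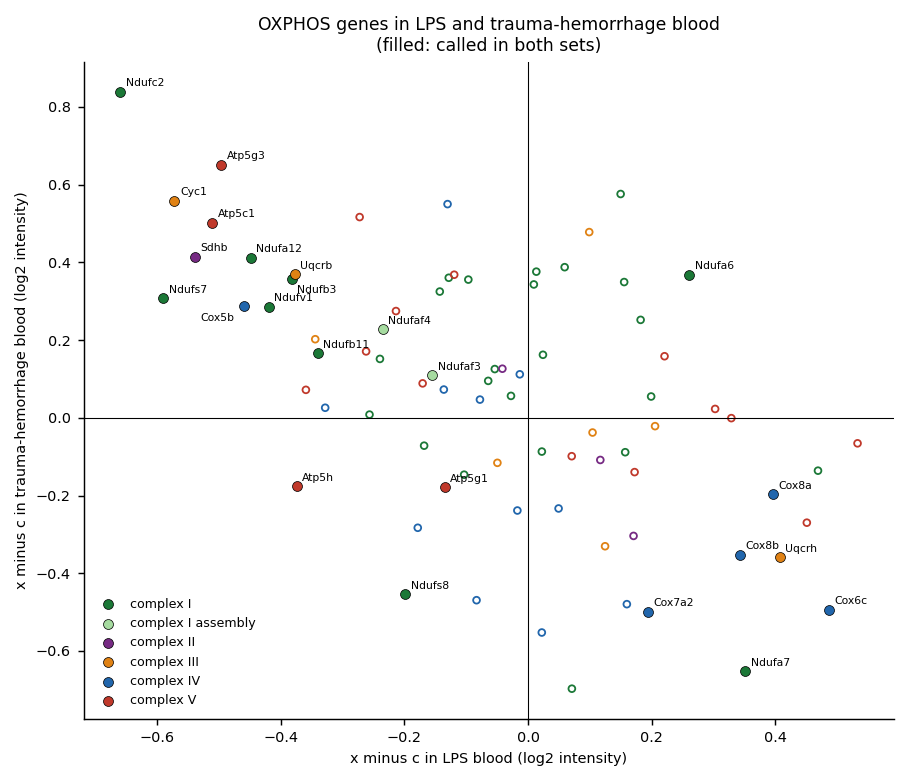
Difference x minus c (log2) of each OXPHOS gene in LPS blood (horizontal axis) against trauma-hemorrhage blood (vertical axis), coloured by complex and filled where called in both sets. Most genes called in both lie in the upper left (14) or the lower right (6), and r over the 79 genes is -0.54. Of the 6 at lower right, Ndufa7 alone was called in both sets in these directions on the deposited scale. Its fall in trauma-hemorrhage blood rests on 1 probe set, and its other probe sets lay between 0.02 and 0.18 there.

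Most falls in trauma-hemorrhage blood depended on the scale of the values. From the main scale to the deposited values, the median of complex I went from 0.17 to 0.31 and that of complex IV from -0.24 to 0.00, while the median of all genes tested went from -0.05 to -0.00. Calls over all genes moved the same way, from 2190 higher and 3359 lower (39.5% higher) to 2809 and 2407 (53.9% higher). Complex II had 2 rises and 0 falls as deposited, complex III 4 and 0, and complex V 11 and 1. In LPS blood the members' counts were 14 and 21 as deposited, and in burn blood 2 and 15. Over all genes 47.2% of calls were higher in LPS blood as deposited (50.2% on the main scale). In burn blood 44.4% were (40.8%). The rises of Ndufc2, Cyc1 and Atp5g3 in trauma-hemorrhage blood were called on every scale tried, and that of Atp5g3 was larger as deposited (1.02).

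**Figure D4:**
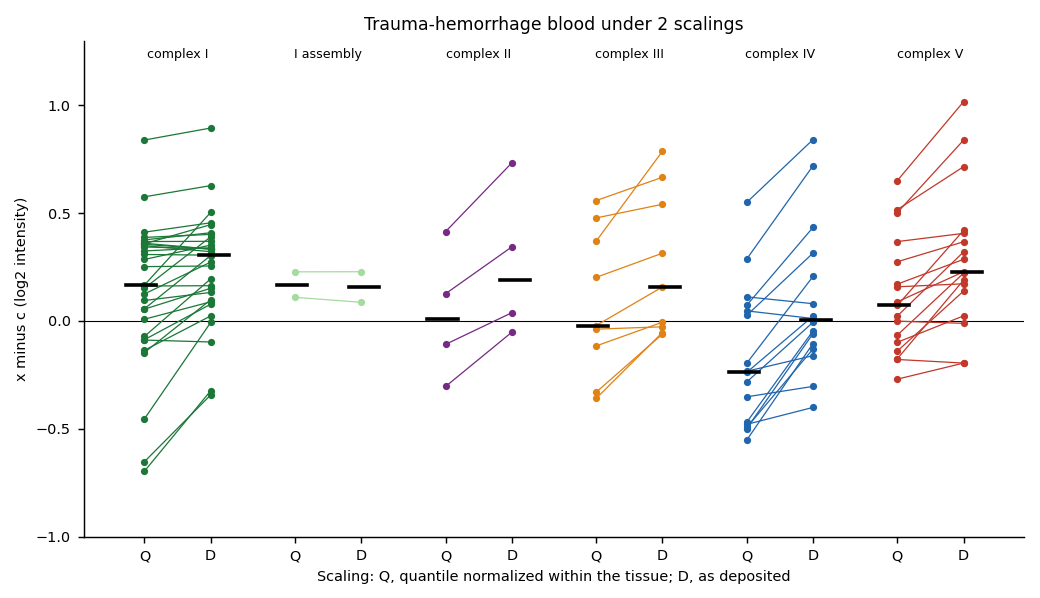
Difference x minus c (log2) of each OXPHOS gene in trauma-hemorrhage blood, by complex, with arrays quantile normalized (Q) and with values as deposited (D). Lines join a gene's values and black bars are medians. Most genes lie higher as deposited. Complex IV moves from a median of -0.24 to 0.00 and complex I from 0.17 to 0.31.

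Letting the beta-actin ratio into the fit as a covariate bore on the blood results. In LPS blood 12 members were then called (4 rises and 8 falls), against 11.4% of all genes, and in burn blood 32 (1 and 31), against 22.3%. In trauma-hemorrhage blood limma called 0, against 0.117% of all genes, with 12 members at an unadjusted p under 0.05. The differences of 45 of the 48 genes called there kept their sign, and their median SE went from 0.078 to 0.175. In LPS blood 32 of 39 kept their sign. Over all genes, 4599 of the 5549 called in trauma-hemorrhage blood and 2125 of the 2810 called in LPS blood kept theirs. Since ratios of c and x did not overlap in these 2 sets, ratio and code cannot be told apart there.

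Where a gene had several probe sets, they did not always move together. In trauma-hemorrhage blood 40 genes had more than 1 tested probe set. In 17 of them the differences had both signs, and of the 17 with more than 1 probe set called, 5 were called both ways. In LPS blood 24 of 40 had both signs, and 4 of 11 were called both ways. In burn blood 9 of 40 had both signs and none of 4 was called both ways. The median spread between the probe sets of a gene was 0.37 in LPS blood, 0.25 in trauma-hemorrhage blood and 0.08 in burn blood.

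The widest spread in LPS blood was that of Atp5h, a peripheral stalk subunit of complex V. The probe set that stood for it fell without overlap (10.11, 10.39 and 10.43 over c arrays and 9.83, 9.9998 and 10.06 over x arrays, -0.37 ± 0.05, adjusted p = 8.9e-06), while another rose by 0.66 ± 0.06 (adjusted p = 2.28e-07). Uqcrc2, an accessory core protein of complex III, had -0.34 and 0.47, Atp5d, of the central stalk, -0.36 and 0.15, and Ndufb7, of complex I, -0.17 and 0.23. In trauma-hemorrhage blood 4 of the 6 probe sets of Ndufs8 were called, with 0.44, -0.24, -0.34 and -0.45. Among called probe sets, Ndufv1 had 0.29 and -0.52, Ndufb11 0.17 and -0.60, Sdhc -0.30 and 0.20, and Atp5pb, of the peripheral stalk, 0.52 and -0.15. For these genes the table gives no single direction.

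Of the 20 genes with opposite calls in LPS and trauma-hemorrhage blood, 11 had another tested probe set, and in 6 of these every other set had the same signs. For Ndufa7 the 4 other sets lay between 0.02 and 0.18 in trauma-hemorrhage blood, against -0.65 for the one that stood for the gene. Ndufs7's other set had 0.14 in LPS and 0.02 in trauma-hemorrhage blood, and that of Uqcrb 0.07 and 0.37. Ndufc2, Sdhb, Cyc1, Uqcrh and Atp5g3 had 1 probe set only, so no second reading bears on them. With each probe set tested on its own, members were called 30 times higher and 35 times lower in LPS blood and 47 and 29 times in trauma-hemorrhage blood, of 141, against 26.3% and 51.8% of all probe sets. In burn blood the counts were 1 and 36, against 18%. In spleen the counts were 7 and 7 of 147 in the burn set (17.6% of all probe sets), 0 and 0 in the LPS set (3.3%) and 3 and 13 in the trauma-hemorrhage set (27.4%).

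**Figure D5:**
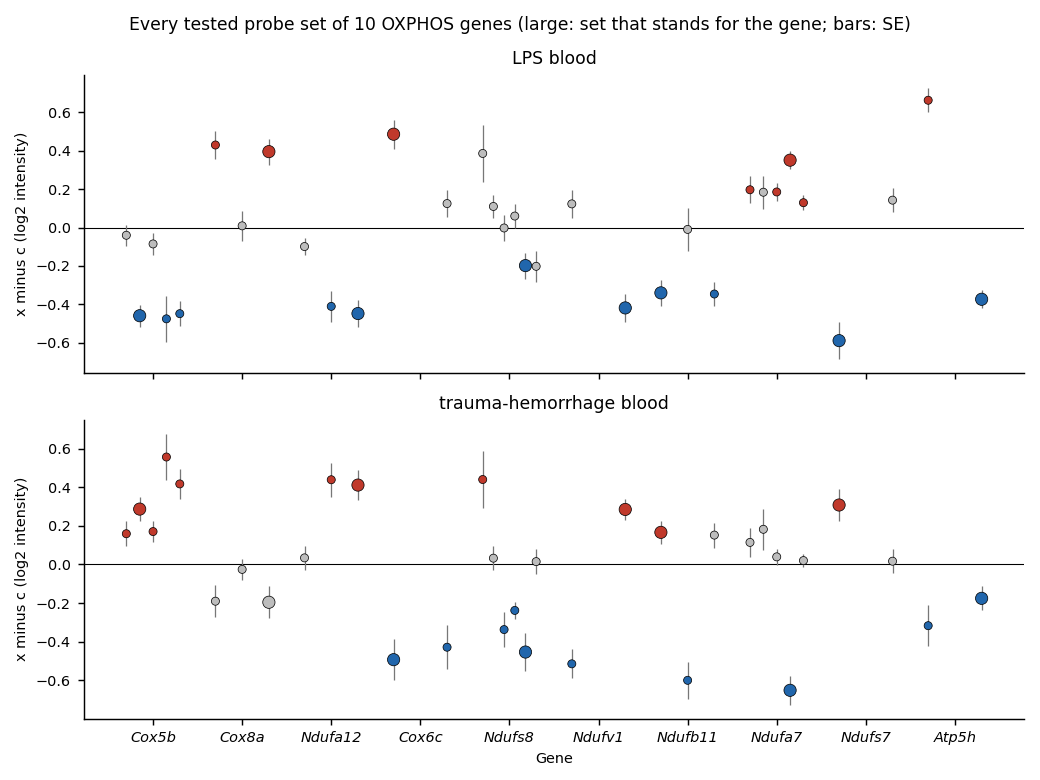
Difference x minus c (log2) of every tested probe set of 10 OXPHOS genes in LPS and trauma-hemorrhage blood. Bars are SE, large dots mark the probe set that stands for the gene, and red, blue and grey are called higher, called lower and not called in a fit of every probe set, in which Cox8a (-0.20 in trauma-hemorrhage blood) was not called. The probe sets of Atp5h in LPS blood (-0.37 and 0.66) and of Ndufs8 in trauma-hemorrhage blood (0.44 to -0.45) were called in opposite directions.

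In burn spleen 6 members were called, spread over complexes III, IV, V and the assembly factors. Limma called 0 of the 33 genes of complex I, and 6 had an unadjusted p under 0.05. Atp5k, a membrane subunit of complex V, had c arrays at 10.22, 10.09, 9.94, 9.90 and 9.97 and x arrays with a lowest, median and highest value of 9.65, 9.75 and 9.85. The codes did not overlap (-0.27 ± 0.07, adjusted p = 0.0131), and its 3 probe sets fell alike (-0.25 to -0.30). Ndufa4, of complex IV, did not overlap either, with c arrays at 10.32, 10.21, 10.19, 10.19 and 10.31 and x arrays at 9.94, 10.10 and 10.14 (-0.17 ± 0.06, adjusted p = 0.0476). It was not called as deposited (-0.11, adjusted p = 0.18). Uqcrb had c arrays at 11.99, 11.62, 11.96, 12.05 and 12.01 and x arrays at 11.54, 11.63 and 11.79, with 1 low c array inside the x range (-0.28 ± 0.07, adjusted p = 0.00918).

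Ndufaf3 fell too (-0.28 ± 0.08, adjusted p = 0.0258), while Uqcrfs1 rose by 0.20 ± 0.06 (adjusted p = 0.037) and Atp5c1 by 0.17 ± 0.06 (adjusted p = 0.0486). Of the 3 probe sets of Ndufs4, an accessory subunit of complex I, 2 were called both ways (-0.30 and 0.30), and the one that stood for the gene had 0.19 and was not called. Without 1 array, the 6 calls became 2 (without c replicate 1) or 3 (without c replicate 3 or 5 or x replicate 2, 4 or 6). The highest count was 9 (without c replicate 4). The share of all genes called in these fits was not recorded. Cell markers moved in the same arrays: 6 of 11 T cell markers were higher in x and 0 lower, 0 and 7 of 11 B cell markers, 1 and 11 of 13 monocyte and macrophage markers, 0 and 4 of 6 erythroid markers and 0 and 6 of 10 markers of proliferating cells. Over all genes 9.92% were called higher and 9.11% lower. The mean B cell level was 10.56 to 10.72 over c and 10.23 to 10.36 over x arrays, and that of the T cell markers 7.96 to 8.54 and 8.60 to 8.83. Their part in the 6 calls was not tested.

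In LPS spleen the smallest adjusted p of a member was 0.194, for Cox7a2l. Its c arrays had 10.51, 10.54 and 10.62 and its x arrays 10.41, 10.45 and 10.49, which do not overlap but differ by only 0.10 on the log2 scale (-0.10 ± 0.03). All differences lay between -0.17 and 0.15. Of 13 neutrophil markers, 7 were higher in x and 0 lower in the same arrays, with a median of 0.81, so x and c did differ in other genes. Over all genes 2.86% were called higher and 1.16% lower.

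In trauma-hemorrhage spleen 10 members fell and 2 rose. Sdha, the catalytic subunit of complex II, had c arrays with 9.46, 9.49 and 9.63 and x arrays at 9.30, 9.10, 9.20, 9.09 and 8.998. No x array reached the c range (-0.37 ± 0.07, adjusted p = 0.000643). Ndufa13, an accessory subunit of complex I also known as a cell death regulator, had c arrays with 10.14, 10.26 and 10.34 and x arrays at 9.96, 10.01, 9.98, 9.82 and 9.60, again without overlap (-0.38 ± 0.08, adjusted p = 0.00173). Atp5h had c arrays with 10.59, 10.76 and 10.94 and x arrays at 10.36, 10.43, 10.54, 10.46 and 10.46 (-0.31 ± 0.06, adjusted p = 0.00206).

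Ndufs4, an accessory subunit needed for the activity of complex I, rose without overlap, from 7.88, 7.95 and 8.05 to 8.24, 8.14, 8.22, 8.33 and 8.14 (0.25 ± 0.06, adjusted p = 0.00714). Cox6a1 fell from 10.81, 10.83 and 10.88 to 10.51, 10.69, 10.68, 10.68 and 10.53, also without overlap (-0.22 ± 0.05, adjusted p = 0.00526), a call lost as deposited (-0.16, adjusted p = 0.06). Of complex I, Ndufs7 (-0.32), Ndufs8 (-0.25) and Ndufb11 (-0.23) fell too, the last 2 not as deposited. Ndufaf4 rose by 0.32 ± 0.10 (adjusted p = 0.027, and 0.094 as deposited). Uqcrb (-0.19 ± 0.06, adjusted p = 0.0235) and Cox7a2l (-0.20, adjusted p = 0.0404) were not called as deposited, and Atp5c1 fell by 0.27 on the log2 scale (SE 0.08, adjusted p = 0.0149). In the same arrays 7 of 11 T cell markers and 7 of 11 B cell markers were lower in x with 0 higher, and 6 of 13 neutrophil markers were higher with 0 lower. Over all genes 11.5% were called higher and 18.4% lower. The mean T cell level was 8.41 to 8.66 over c and 7.93 to 8.14 over x arrays. The part of these cells in the falls was not tested.

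Between models in spleen, the F test called 8 of 81 members (9.88%), against 27.1% of all genes. Atp5c1 had the smallest p (adjusted p = 0.0034), its x minus c being -0.44 in trauma-hemorrhage relative to burn spleen, and Cox7a2l followed (adjusted p = 0.00395), at -0.33. Atp5h, Sdhb, Ndufs7, Sdha, Ndufb11 and Ndufa13 were the other 6. Ndufc2 and Cyc1, which led in blood, were not called in any spleen set, with differences of -0.10 and -0.02 in burn, -0.17 and 0.05 in LPS and -0.15 and -0.05 in trauma-hemorrhage spleen.

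Few calls came from the letters. An F test over the 3 blood models called 1 of 79 members for E minus A, against 0.781% of all genes, with 3 at an unadjusted p under 0.05. It was Cox5a (F adjusted p = 0.0152), which binds a thyroid hormone metabolite and faces the matrix. In trauma-hemorrhage blood it had a lowest, median and highest value of 10.28, 10.78 and 11.48 over the 10 A arrays and of 9.94, 10.39 and 11.07 over the 12 E arrays, with wide overlap (-0.43 ± 0.09, adjusted p = 0.00414). The call was lost as deposited and without c A replicate 3. Atp5g1 was next (F adjusted p = 0.382). Whether x minus c depends on the letter was called by limma for 0 of 79 members and 0% of all genes, and 14 members had an unadjusted p under 0.05, led by Uqcrh (adjusted p = 0.253) and Atp5j2 (adjusted p = 0.284).

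Genes that serve the complexes were counted in the same way, and their likeness to the members was not tested. All list counts below need the background of calls either way over all genes. That background was 19.2% (burn), 27.4% (LPS) and 54.2% (trauma-hemorrhage) for the blood sets. For the spleen sets it was 19% (burn), 4.02% (LPS) and 30% (trauma-hemorrhage). A list called at or below its background is not set apart from other genes by its count. Of 22 OXPHOS assembly factors tested in blood, 2 rose and 8 fell in burn blood, 1 and 5 in LPS blood, with 4 and 5 in trauma-hemorrhage blood. Timmdc1, a complex I assembly factor, fell in burn (-0.32) and LPS blood (-0.41), Sdhaf4, of complex II, fell in LPS blood (-0.28), and Tmem70, which helps build the ATP synthase, rose by 0.52 in trauma-hemorrhage blood while Sdhaf2 fell there (-0.26). In spleen 3 rose and 3 fell of 26 in the burn set, 0 and 0 in the LPS set and 1 and 7 in the trauma-hemorrhage set. Sdhaf1, which matures Sdhb, rose by 0.29 in burn blood and by 1.16 in burn spleen, where Ecsit rose by 0.37. Surf1, a complex IV assembly factor, fell in trauma-hemorrhage spleen (-0.78) and Cox18 rose there by 0.69.

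Of 17 genes for mobile carriers and for the exchange of ADP, ATP and phosphate, 0 rose and 4 fell in burn blood, 1 and 4 in LPS blood, with 3 and 6 in trauma-hemorrhage blood. Cycs, cytochrome c itself, fell in LPS blood (-0.34) and rose by 0.72 in trauma-hemorrhage blood, and so did Slc25a3, the phosphate carrier (-0.29 and 0.70). Slc25a4, an ADP/ATP carrier, fell in burn blood (-0.44), where Etfa fell too (-0.28), and in trauma-hemorrhage spleen (-0.44), where Coq8a, of ubiquinone synthesis, fell (-0.70). In spleen 0 and 1 of 17 were called in the burn set (Atpif1, the inhibitor of the ATP synthase, -0.29), 0 and 0 in the LPS set and 1 and 2 in the trauma-hemorrhage set. Of 19 genes of the tricarboxylic acid cycle and pyruvate dehydrogenase, 0 rose and 7 fell in burn blood, 3 and 4 in LPS blood, with 8 and 3 in trauma-hemorrhage blood. Fh1, fumarase, fell in burn blood (-0.62) and burn spleen (-0.50). Ogdh fell in burn blood (-0.26) and rose by 0.34 in LPS blood, where Cs, citrate synthase, fell (-0.37). Dld and Sucla2 rose by 0.60 and 0.43 in trauma-hemorrhage blood. In spleen 4 and 1 of 21 were called in the burn set, where Pdk1, which shuts pyruvate out of the cycle, rose by 0.76. In LPS spleen 0 and 0 were called, and in trauma-hemorrhage spleen 1 and 8, led by Idh2 (-0.52) and Mdh2 (-0.37).

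Of 18 genes of mitochondrial import, 0 rose and 2 fell in burn blood (led by Tomm34, -0.28, and Timm8a1, -0.23), 2 and 4 in LPS blood, with 10 and 3 in trauma-hemorrhage blood. Tomm20, a receptor of the outer membrane, fell in LPS blood (-0.58) with Hspe1 (-0.56) and rose by 0.85 in trauma-hemorrhage blood, where Timm23 rose by 0.49. In spleen 3 and 0 of 21 were called in the burn set, 1 and 0 in the LPS set (Timm10, 0.26) and 5 and 1 in the trauma-hemorrhage set. Tomm70a rose by 0.21 in burn and 0.57 in trauma-hemorrhage spleen. Of 17 regulators of mitochondrial biogenesis, 3 rose and 3 fell in burn blood, 2 and 3 in LPS blood, with 6 and 4 in trauma-hemorrhage blood. Ssbp1, which coats single-stranded mitochondrial DNA, fell in burn (-0.44) and LPS blood (-0.74) and rose by 0.71 in trauma-hemorrhage blood. Gabpb1, the partner of GABPA, rose by 0.71 in LPS blood and 0.41 in LPS spleen. Hif1a, the oxygen-regulated factor, rose by 1.23 in trauma-hemorrhage blood, 0.60 in burn spleen and 0.77 in trauma-hemorrhage spleen, and Myc by 0.89 in LPS and 1.24 in trauma-hemorrhage spleen. Of 19 regulators in spleen 3 and 1 were called in the burn set, 2 and 0 in the LPS set and 4 and 6 in the trauma-hemorrhage set.

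Other large complexes gave counts to set beside these. Of 39 cytosolic ribosomal protein genes, 0 rose and 12 fell in burn blood, 5 and 15 in LPS blood, with 22 and 1 in trauma-hemorrhage blood, where their median was 0.33. Of 35 proteasome subunits, 0 and 13, 4 and 10, and 28 and 2 were called in the same order, and those in trauma-hemorrhage blood had a median of 0.55. Of 58 mitochondrial ribosomal protein genes, 1 and 20, 7 and 11, and 15 and 15 were called. Falls in burn blood and rises in trauma-hemorrhage blood were thus also seen among genes of the cytosolic ribosome and the proteasome.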

How the data were processed

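The deposited values are linear intensities, 1 per probe set and array, as the authors' value table gives them. The sources used here do not give the image analysis or the scaling behind them. Control probe sets were left out, which kept 22626. Intensities were taken as log2(value + 16), since this offset damps the dimmest probe sets, and quantile normalized within each tissue. The probe set with the highest mean stood for each gene, which left 14639 features (genes, and probe sets without a single symbol), and those under the 30th percentile of a tissue's mean were left out, which left 10247 to test. limma 3.58.1 in R 4.3.3 fitted 1 term per group (eBayes with a trend, Benjamini-Hochberg adjustment, two-sided). F tests compared the 3 models and the letters. The fits were tested on simulated data. Of changes of 0.5 log2, the x minus c fits recovered from 76% (trauma-hemorrhage spleen) to 94% (burn blood). The test of letter by code recovered 27%. The members and lists were chosen with earlier results of these data known. Their counts therefore stand beside those over all genes, where these were recorded, and carry no test of their own.

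Named genes are, for each set and complex, the largest rise and the largest fall called, the genes leading each F test, the isoforms of restricted tissues, genes whose probe sets were called both ways, and the leading members of the other lists. Other genes were named after their values were seen. Lists were matched by symbol: 28 of 38 assembly factors, 20 of 24 carriers, 22 of 24 genes of the tricarboxylic acid cycle, 22 of 24 regulators and 22 of 24 import genes were on the array. Alternatives were other offsets, filters and scalings, every probe set, array weights, a robust variance, 1 fit of all groups, single letters, the beta-actin ratio as a covariate, a threshold of 0.5 log2, the pass through the title numbers as a block, and leaving out each array. Fits without burn blood c E replicates 4 and 5 and within single passes were chosen after seeing the data.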

Additional observations from a re-analysis of the deposited data

Results flagged for a closer look

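The limma F test between models called 63 of 79 OXPHOS genes in blood (79.7%), against 59.6% of all genes. Ndufc2 (adjusted p = 6.5e-12) and Cyc1 (adjusted p = 1.03e-11) led. In spleen it called 8 of 81 (9.88%), against 27.1% of all genes, with Atp5c1 (adjusted p = 0.0034) and Cox7a2l (adjusted p = 0.00395) leading. The F test was not run with the beta-actin ratio as a covariate.

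The mean level of each complex was checked for an array far from the others of its group. Of 108 groups and levels, 5 had one, and chance flags about 1 in 20. In LPS blood, replicate 5 of c with A had a complex V level of 9.11, against 8.83 to 8.91 in the others. Replicate 2 of x with A had 8.73, against 8.95 to 9.02. In trauma-hemorrhage blood, replicate 5 of c with A had a complex V level of 8.54, against 8.75 to 8.79, and replicate 4 of x with A a complex I level of 8.33, against 8.47 to 8.51. In LPS spleen, replicate 6 of x had a complex V level of 9.66, against 9.56 to 9.59.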

How the results depend on the processing

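Of 127 called values, an offset of 1 kept 126, an offset of 64 kept 125, no filter 119, array weights 124, a robust variance 126 and 1 fit of all groups 117. The deposited scale kept 94, lost 30 and reversed 3 (trauma-hemorrhage blood: Atp5h 0.19, Cox8a 0.21, Cox8c 0.022). Median centring kept 96, lost 26 and reversed 5 (Ndufa4 0.0023, Ndufs8 0.0015, Atp5h 0.20, Cox8a 0.21, Cox8c 0.031). The beta-actin covariate kept 42, lost 75 and reversed 10: in LPS blood Atp5e -0.30, Uqcrc1 -0.31, Ndufs8 0.39, Atp5md -0.50, Atp5l -0.43, Ndufa6 -0.54 and Ndufs4 -0.043, and in trauma-hemorrhage blood Uqcr10 0.13, Cox8b 0.38 and Ndufb1 -0.14. Of 109 called values that could be compared, letter A alone kept 64 and lost 45, and letter E alone kept 38 and lost 71. The first pass of title numbers alone kept 56 and lost 53, and the second kept 40 and lost 69. A threshold of 0.5 log2 kept 16 of the 127 and lost 111. In these 5 settings 0 values reversed. The cause of these changes was not tested.

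Counts of members called moved by over 1.5 times as follows. As deposited, trauma-hemorrhage spleen had 6 and E minus A 0; median centred, 7 and 0. With every probe set, burn blood had 37, LPS blood 65 and trauma-hemorrhage blood 76 of 141, and burn spleen 14 of 147. Over all probe sets 18%, 26.3%, 51.8% and 17.6% were called in the same order. The model test in blood then had 104 and E minus A 4. Array weights gave 40 in burn blood. Beyond 0.5 log2, burn blood had 0 and LPS blood 6, trauma-hemorrhage blood 10, burn spleen 0 and trauma-hemorrhage spleen 0. Letter A alone gave 11 in LPS blood, and letter E alone 1 in burn blood and 15 in trauma-hemorrhage blood. In burn blood letter A, with fewer arrays than E, gave 26. The part of array number in these counts was not tested. The covariate gave 12 in LPS blood and 0 in trauma-hemorrhage blood (12 at an unadjusted p under 0.05). Without burn blood c E replicates 4 and 5 together, 38 were called (1 rise and 37 falls). Shares over all genes were not recorded for this fit, for array weights, for the 0.5 log2 threshold or for the F tests with every probe set. Within the first pass of title numbers trauma-hemorrhage blood had 13, and within the second burn blood 0 (9 at an unadjusted p under 0.05) and LPS blood 5.

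Without 1 array, the counts were 15 to 33 in burn blood, 35 to 42 in LPS blood, 44 to 50 in trauma-hemorrhage blood, 2 to 9 in burn spleen, 0 to 0 in LPS spleen, 9 to 15 in trauma-hemorrhage spleen, 62 to 67 and 4 to 10 for the model test in blood and spleen (4 without trauma-hemorrhage spleen c replicate 3, 5 without x replicate 5), 0 to 0 for letter by code, and 0 to 1 for E minus A (0 without trauma-hemorrhage blood c A replicate 3). For these fits the share of all genes called was not recorded. Of the 127 values, 27 were lost without at least 1 array and 0 reversed. No paired analysis was possible because the labels give no replicate numbers and the numbers used here follow accession order.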
